A study of Mus musculus and Homo sapiens with 14 samples.

Results

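The comparison of azacytidine with decitabine in EG7-OVA cells rests on 4 of the 14 libraries of the study, namely both libraries of the azacytidine group and both of the decitabine group. EG7-OVA is a derivative of the mouse T-cell lymphoma line EL4 that expresses ovalbumin, and the labels give its genotype as WT. Azacytidine was given at 1.5 µM and decitabine at 0.2 µM, each at 0, 24 and 48 h, and RNA was taken at 72 h. The 2 libraries of the solvent control, DMSO, had the same schedule and serve as the background for both drugs. The drugs were thus compared as dosed, and an effect of the compound cannot be told apart from an effect of its dose. The labels do not say whether the libraries of a group came from separate cultures, so the p-values measure only the spread between these samples. The growth text names this line both with and without IL-2, and which medium the 6 libraries had is not stated.

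Azacytidine and decitabine are cytidine analogues with a nitrogen in the ring in place of the carbon that DNA methyltransferases methylate. Azacytidine carries a ribose. It is phosphorylated by uridine-cytidine kinase, goes mostly into RNA, and reaches DNA only after ribonucleotide reductase has converted part of it. Decitabine carries a deoxyribose. It is phosphorylated by deoxycytidine kinase and goes into DNA. In DNA either analogue traps the methyltransferases, above all DNMT1, the enzyme that copies methylation to the new strand, so that methylation is lost as cells divide. Promoters that methylation keeps silent, such as those of many germline genes and of imprinted alleles, are known to respond to such loss, and so are interferon genes through sensing of transcripts from endogenous retroviruses.

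The 6 libraries held between 15690749 and 21048978 counts each, with a read for 24596 to 28767 genes, and the smallest 2 totals were those of azacytidine. The T-cell markers Cd3d, Cd3e, Cd3g, Thy1 and Lck were present in every library. Levels are given in CPM, counts scaled to the library total, after TMM scaling, a correction for library composition. Not all T-cell markers were so even. The T-cell receptor constant segment Trbc2 ranged from 8.04 to 133 CPM between the 2 DMSO libraries alone. Trbc1, another such segment, had 1 read in DMSO replicate 2 and 603 in DMSO replicate 3, and 0.775 to 5.82 CPM with the drugs. Cd247 was low, at 1.26 to 8.97 CPM. One drug-treated library stood apart, since mitochondrial transcripts took 2.61% of the counts of decitabine replicate 1 and 0.969% to 1.21% of the other 5. Across genes the log CPM of the azacytidine pair correlated at r = 0.976 and that of the decitabine pair at r = 0.978. Libraries of different drugs correlated at r = 0.966 to 0.984, and drug-treated libraries correlated with DMSO libraries at r = 0.905 to 0.937. These r values are descriptions across genes, which are not independent replicates.

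Promoter sequence is shown for genes with the smallest p between the drugs, as the place where DNA methylation would act. The 250 bases upstream of the RefSeq start (GRCm38.p6) are printed for the first 2 such genes in each direction that the RefSeq promoter table holds, with every CG, the site of DNA methylation, in capitals. Esx1, a homeobox gene of the placenta and testis, and Dazl, an RNA-binding protein of germ cells, stood higher with azacytidine. Acta2, smooth-muscle actin, and Gcsam, a signalling adaptor of lymphocytes, stood higher with decitabine. The stretch for Esx1 lies at chrX:137120327-137120576 on the minus strand and that for Dazl at chr17:50293621-50293870 on the minus strand. The stretch for Acta2 lies at chr19:34255374-34255623 on the minus strand and that for Gcsam at chr16:45610190-45610439 on the plus strand. Another annotation, GENCODE M21, starts Esx1 at chrX:137122083, so its stretch lies inside the gene there. The stretches for Dazl, Acta2 and Gcsam run over the gene start of that annotation.
Esx1: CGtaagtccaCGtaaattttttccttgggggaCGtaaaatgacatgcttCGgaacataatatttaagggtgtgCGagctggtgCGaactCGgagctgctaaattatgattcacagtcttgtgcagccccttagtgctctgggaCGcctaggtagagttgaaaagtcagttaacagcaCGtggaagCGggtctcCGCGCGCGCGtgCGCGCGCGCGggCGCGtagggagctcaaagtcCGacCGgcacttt
Dazl: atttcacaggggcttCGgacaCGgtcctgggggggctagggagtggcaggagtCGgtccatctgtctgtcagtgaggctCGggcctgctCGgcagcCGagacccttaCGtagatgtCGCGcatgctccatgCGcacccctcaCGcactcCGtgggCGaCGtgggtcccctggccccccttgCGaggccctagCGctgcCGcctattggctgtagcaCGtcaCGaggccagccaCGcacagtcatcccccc
Acta2: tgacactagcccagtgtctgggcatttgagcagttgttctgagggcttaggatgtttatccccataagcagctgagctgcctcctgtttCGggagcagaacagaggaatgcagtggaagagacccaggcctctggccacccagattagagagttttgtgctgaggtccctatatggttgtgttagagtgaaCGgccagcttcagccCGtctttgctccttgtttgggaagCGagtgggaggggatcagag
Gcsam: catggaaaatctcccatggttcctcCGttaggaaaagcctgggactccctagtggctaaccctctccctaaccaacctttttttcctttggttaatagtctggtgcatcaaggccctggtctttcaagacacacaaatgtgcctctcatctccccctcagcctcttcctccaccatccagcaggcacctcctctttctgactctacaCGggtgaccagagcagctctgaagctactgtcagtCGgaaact
Esx1 held 24 CG and Dazl 20, against 4 in Acta2 and 3 in Gcsam. The median over the 27025 promoters of the table was 6. DNA methylation was not measured in these libraries, and the counts of CG describe these 4 stretches only.

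No gene differed between the drugs at an adjusted p of 0.05 in edgeR's quasi-likelihood test (0 of 19123 tested, 0%; smallest adjusted p 0.0945). Unadjusted p was under 0.05 for 1218 genes (6.37%), with 444 higher and 774 lower with azacytidine. The call depended on the tool. Limma-voom also called 0 genes, with 1271 at an unadjusted p under 0.05, while DESeq2 called 172 of the 15044 genes to which it gave an adjusted p (1.14%), 37 higher and 135 lower with azacytidine. DESeq2 gave an unadjusted p under 0.05 to 1075 genes. It also depended on single libraries, since edgeR called 7 genes without DMSO replicate 2, 88 without DMSO replicate 3 and 5 without decitabine replicate 2.

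The fitted log2 difference, azacytidine minus decitabine, lay between -0.92 and 0.78 for the middle 90% of genes, with a median of 0.004. It was above 1 for 609 genes and below -1 for 812. The absence of calls does not show that the drugs act alike. The 95% interval of the difference had a median half-width of 0.743 on the log2 scale, and it lay wholly within a doubling in either direction for 9580 genes (50.1%). The libraries of the drugs did not overlap for 6691 genes (35.0%), 3318 of them higher and 3373 lower with azacytidine. These shares are the background for the counts given for gene groups.

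**Figure D1:**
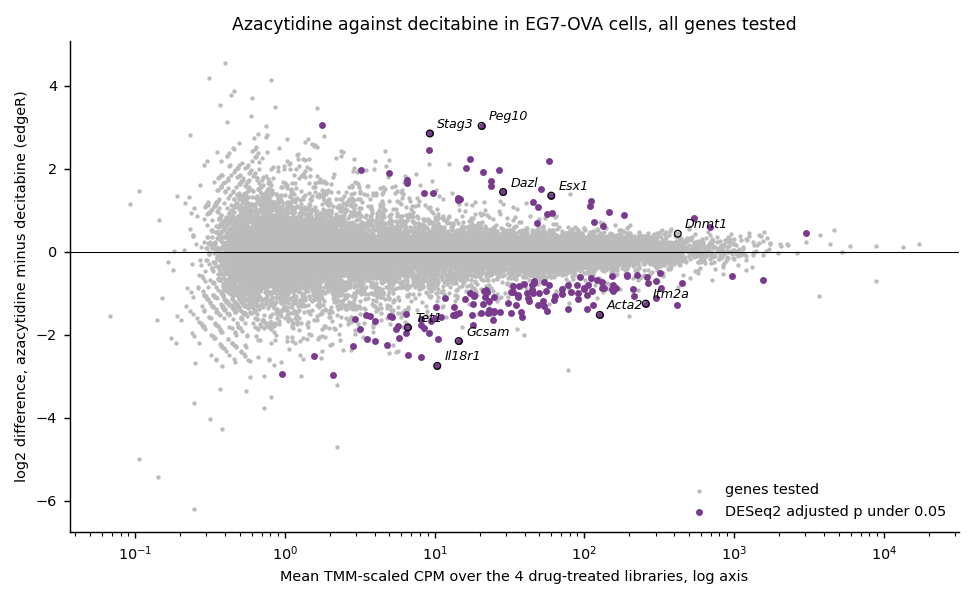
Each point is 1 of the 19123 genes tested, with its mean level over the 4 drug-treated libraries on a log axis and the edgeR log2 difference, azacytidine minus decitabine, on the vertical axis. The 172 genes called by DESeq2 are purple, 37 above and 135 below 0, and edgeR called none of them.

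The background for both drugs is their contrast with DMSO. With azacytidine edgeR called 3883 of 19123 genes (20.3%), 2601 higher (13.6%) and 1282 lower (6.70%). With decitabine it called 3198 (16.7%), 2376 higher (12.4%) and 822 lower (4.30%). These shares are the background for the counts against DMSO given for gene groups. These contrasts share the DMSO libraries, so their values are given side by side and their likeness is not tested. The totals depended on single libraries. The azacytidine count was 1675 without azacytidine replicate 1 and 2226 without azacytidine replicate 2. The decitabine count was 2054 without DMSO replicate 2 and 1520 without decitabine replicate 2.

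Of the genes highest with azacytidine, several were nearly silent in DMSO cells. They were chosen after their values were seen, as the 12 smallest p in each direction among genes whose higher group averaged at least 5 CPM and whose drug libraries did not overlap, so their separation is a description. Peg10, an imprinted gene derived from a retrotransposon, stood at 49.1 and 24.4 CPM with azacytidine and at 4.79 and 4.15 CPM with decitabine, and it had no read in either DMSO library. The difference between the drugs was 3.04 ± 0.37 (log2, SE; 95% interval 2.19 to 3.88; edgeR adjusted p = 0.0945). Set against a floor of 3 counts over the DMSO group, Peg10 was at least 482-fold higher with azacytidine and at least 59.7-fold higher with decitabine. Every drug-treated library was thus above both controls, and both azacytidine libraries were above both decitabine libraries.

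Esx1 measured 84.8 and 88.3 CPM with azacytidine, 28.8 and 39.0 with decitabine, and 10.7 and 9.17 in DMSO. Its difference between the drugs was 1.35 ± 0.20 (95% interval 0.91 to 1.80), and it rose against DMSO with azacytidine by 3.13 ± 0.22 (edgeR adjusted p = 2.66e-05) and with decitabine by 1.77 ± 0.21 (edgeR adjusted p = 0.000469). The 3 groups did not overlap, and decitabine lay between DMSO and azacytidine. Dazl stood at 41.5 and 42.4 CPM with azacytidine and at 12.8 and 18 CPM with decitabine, against 0.201 and 0.0498 in DMSO. Its difference was 1.44 ± 0.27 (95% interval 0.83 to 2.05). The same order held for Stag3, a cohesin subunit of meiosis, and Taf7l, a transcription factor subunit of male germ cells. Stag3 measured 14.3 and 18.4 CPM with azacytidine against 0.867 and 3.66 with decitabine, and Taf7l 25.4 and 31.4 against 3.06 and 9.02. Neither passed 0.201 CPM in a DMSO library.

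Cdkn1c, an imprinted inhibitor of cyclin-dependent kinases, measured 62.9 and 22.4 CPM with azacytidine and 12.3 and 9.51 with decitabine, against 0.101 and 0.199 in DMSO. The azacytidine libraries were far apart for this gene and for Peg10, with replicate 1 the higher of the pair in both. Foxc1, a forkhead transcription factor, followed another order. It stood at 10.6 and 9.66 CPM with azacytidine, 2.50 and 3.55 with decitabine and 6.03 and 4.34 in DMSO, so that DMSO lay between the drugs, and neither drug passed the test against it (edgeR adjusted p = 0.0727 and 0.165). The remaining genes of this direction were Slc39a12, Tspoap1, Tuba3b, Grik3 and S1pr2, with differences between 0.91 and 2.46. Tuba3b and Tuba3a are near-identical copies that can share reads, so the level of either is uncertain.

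Among the genes lower with azacytidine, DMSO took several positions. Acta2 measured 62.7 and 68.8 CPM with azacytidine, 164 and 213 with decitabine, and 134 and 107 in DMSO. The difference between the drugs was -1.52 ± 0.19 (95% interval -1.95 to -1.09; edgeR adjusted p = 0.0945). Acta2 fell with azacytidine by 0.88 ± 0.19 (edgeR adjusted p = 0.00994) and rose with decitabine by 0.64 ± 0.19 (edgeR adjusted p = 0.0429), so the drugs lay on opposite sides of DMSO. The decitabine call was lost without DMSO replicate 3, decitabine replicate 2 or either azacytidine library (adjusted p up to 0.322). The azacytidine call was lost without either azacytidine library (adjusted p up to 0.0921).

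Il18r1, the receptor chain that binds interleukin 18, stood at 2.22 and 3.16 CPM with azacytidine, 22.8 and 13.6 with decitabine and 9.15 and 12.3 in DMSO. The difference was -2.75 ± 0.37 (95% interval -3.57 to -1.93). It fell with azacytidine (log2 change -1.99, edgeR adjusted p = 0.00404), while the decitabine value was 0.76 ± 0.34 (edgeR adjusted p = 0.158). Gcsam measured 5.36 and 5.30 CPM with azacytidine, 30.4 and 17.0 with decitabine and 55.4 and 50.9 in DMSO. It fell by 3.32 with azacytidine and by 1.17 with decitabine on the log2 scale, and the decitabine call was lost without DMSO replicate 2 or decitabine replicate 2 (adjusted p up to 0.0758). Gpr171, a G-protein-coupled receptor of lymphocytes, fell with azacytidine to 19.9 and 20.8 CPM from 59.0 and 50.7, and stood at 52.4 and 46.3 with decitabine. Chdh, choline dehydrogenase, and Tnfrsf19, a receptor of the tumour necrosis factor family, followed the same order.

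Ccr4, a chemokine receptor of helper T cells, had azacytidine values among those of DMSO. It stood at 74.1 and 61.9 CPM with azacytidine, 76.3 and 61.2 in DMSO, and 142 and 137 with decitabine. It rose with decitabine (log2 change 1.02, edgeR adjusted p = 0.00396) and its azacytidine value was -0.02 ± 0.18. Itm2a, a membrane protein of activated T cells, and Sytl2, a synaptotagmin-like protein of vesicle traffic, also rose with decitabine, by 0.81 and 0.92 on the log2 scale, and did not pass the test with azacytidine. Both decitabine calls were lost without DMSO replicate 2 or decitabine replicate 1 (adjusted p up to 0.165). Mylk4, a kinase, fell with both drugs, to 130 and 150 CPM with azacytidine and to 335 and 251 with decitabine from 488 and 459. Its decitabine call was lost without DMSO replicate 2, decitabine replicate 2 or either azacytidine library (adjusted p up to 0.239). Insl5, a relaxin-family peptide, and Trgc4, a T-cell receptor gamma constant segment, complete the list, with differences of -1.78 and -1.31 between the drugs. All 24 genes had a DESeq2 adjusted p under 0.05, against 1.14% of the genes to which it gave one. They were chosen by their edgeR p on the same counts, so this is no separate support.

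**Figure D2:**
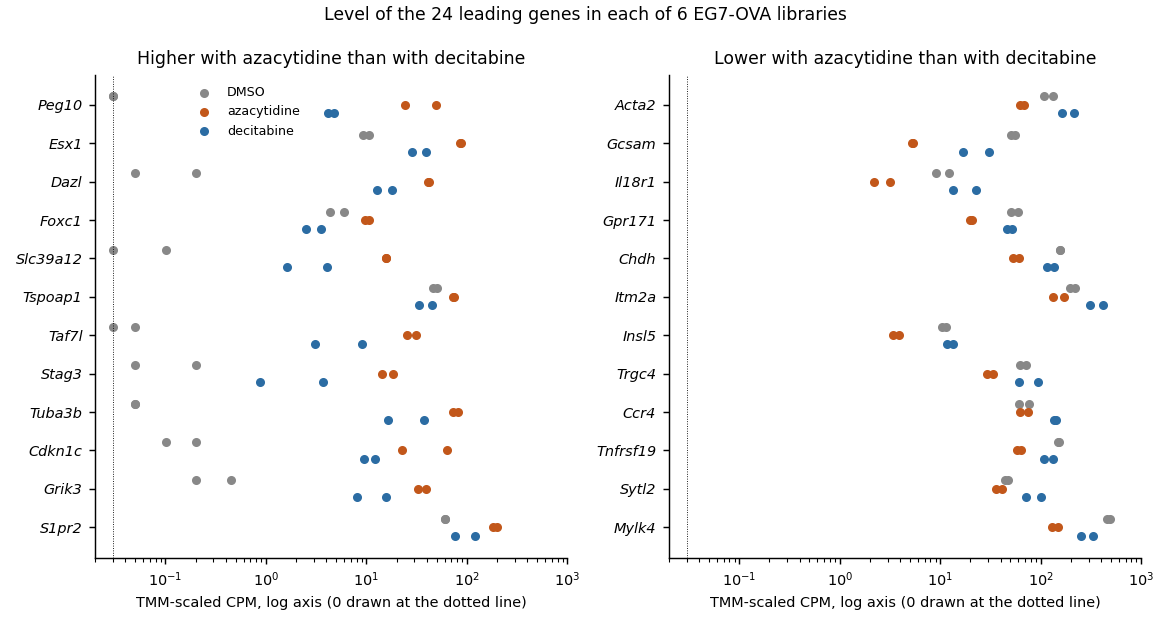
Points give the TMM-scaled level (CPM, log axis) of the 24 leading genes in each of the 6 libraries, grey for DMSO, orange for azacytidine and blue for decitabine. On the left azacytidine is the highest group throughout, with Peg10 at 0 in DMSO; on the right azacytidine is below decitabine, and for Ccr4 it lies among the DMSO points.

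The position of DMSO differed between the directions in the 172 genes called by DESeq2. Over all 19123 genes tested, the DMSO mean was below both drugs in 8430, between them in 3130 and above both in 7563, and under 1 CPM in 22.8%. Of the 37 higher with azacytidine, the DMSO mean was below both drugs in 34 and between them in 3, and it was under 1 CPM in 21. Of the 135 lower with azacytidine, DMSO was below both drugs in 28, between them in 49 and above both in 58, and it was under 1 CPM in 2. Against DMSO, edgeR called 78 of the 135 lower and 11 higher with azacytidine, and 13 lower and 43 higher with decitabine. The contrasts share libraries, so these counts describe the order of the 3 levels and test nothing further.

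The enzymes that take up and activate the drugs gave no call between them. Slc29a1, the equilibrative nucleoside transporter, stood at 166 and 134 CPM with azacytidine and 137 and 121 with decitabine. The uridine-cytidine kinases that activate azacytidine differed by 0.25 ± 0.19 for Uck1 and 0.17 ± 0.18 for Uck2. Dck, which activates decitabine, differed by 0.11 ± 0.16 (95% interval -0.25 to 0.48), with 46.5 and 48.2 CPM against 43.7 and 43.9. The intervals of these 4 genes all stayed within a doubling in either direction. Cda, the deaminase that inactivates both drugs, had no read in any of the 6 libraries. Dctd, which deaminates the deoxycytidine monophosphate form, fell with both drugs, by 1.07 and 0.97 on the log2 scale, and differed between them by -0.09 ± 0.17. Samhd1, which hydrolyses deoxynucleotides, rose with both from 0.553 and 0.598 CPM, to 5.23 and 3.28 with azacytidine and 4.33 and 2.19 with decitabine, and the drug libraries overlapped. Its decitabine call was lost without decitabine replicate 1 (adjusted p = 0.0535 with edgeR).

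Ribonucleotide reductase, on the route of azacytidine into DNA, had differences of -0.12 ± 0.21 for Rrm1 and -0.15 ± 0.22 for Rrm2. Over the whole list of nucleoside uptake and activation, the median difference of the 20 genes tested was 0.06, with 13 positive, and it ran from -0.03 without azacytidine replicate 1 (8 positive) to 0.16 without azacytidine replicate 2. Of the 7 RNA cytosine methyltransferases, targets that only the ribose form can reach, the median was 0.14, or 0.015 without azacytidine replicate 2. Trdmt1, the tRNA methyltransferase also called Dnmt2, measured 10.1 and 12.5 CPM with azacytidine and 11.9 and 14.6 with decitabine. Nsun2, another tRNA methyltransferase, fell with both drugs, from 462 and 328 CPM to 231 and 229 with azacytidine and to 238 and 230 with decitabine. Its calls depended on single libraries. The azacytidine call was lost without DMSO replicate 2 or either azacytidine library, and the decitabine call without any library but DMSO replicate 3 (adjusted p up to 0.151).

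Within the DNA methylation machinery, the genes of the maintenance enzyme and its partner had azacytidine means between those of DMSO and decitabine. Dnmt1 measured 493 and 477 CPM with azacytidine, 344 and 372 with decitabine and 637 and 585 in DMSO. It fell with decitabine by 0.77 ± 0.16 (edgeR adjusted p = 0.00988), its azacytidine value was -0.33 ± 0.16 (edgeR adjusted p = 0.177), and the drugs differed by 0.44 ± 0.16 (95% interval 0.08 to 0.79). Uhrf1, which recruits DNMT1 to new DNA, stood at 311 and 224 CPM with azacytidine, 194 and 192 with decitabine and 375 and 297 in DMSO. It fell with decitabine (edgeR adjusted p = 0.0223), its azacytidine value was -0.33 ± 0.20 (edgeR adjusted p = 0.288), and the drugs differed by 0.47 ± 0.20. EdgeR called neither difference between the drugs (adjusted p = 0.627 and 0.743). The decitabine calls of both genes were lost without either decitabine library, and that of Uhrf1 also without DMSO replicate 2 (adjusted p up to 0.0682 for Dnmt1 and 0.126 for Uhrf1).

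Of the methyltransferases that set new methylation, Dnmt3a did not follow Dnmt1. Dnmt3a rose with azacytidine by 0.94 ± 0.19 and with decitabine by 0.80 ± 0.19 (edgeR adjusted p = 0.00645 and 0.0162), and its drug libraries overlapped. The azacytidine call was lost without azacytidine replicate 1, and the decitabine call without either decitabine library or DMSO replicate 2 (adjusted p up to 0.1 and 0.0894). Dnmt3b stood at 40.2 and 34.3 CPM with azacytidine, 30.5 and 30.7 with decitabine and 41.1 and 31.0 in DMSO. Its drugs differed in the direction of Dnmt1, by 0.28 ± 0.20 (95% interval -0.17 to 0.73), and their libraries did not overlap. Tet1, an oxidase of methylated cytosine, had the widest gap of the list, with 2.61 and 3.22 CPM under azacytidine, 12.9 and 7.81 under decitabine and 1.66 and 3.39 in DMSO. It rose with decitabine (log2 change 2.03, edgeR adjusted p = 0.011), a call lost without decitabine replicate 1. The drugs differed by -1.83 ± 0.43 (edgeR adjusted p = 0.245, DESeq2 adjusted p = 0.0194). Of the 18 genes of this list, 1 rose and 1 fell with azacytidine, against 13.6% and 6.70% of all genes. With decitabine 2 rose and 4 fell, against 12.4% and 4.30%. Only the count of 4 was above its share. The count of 4 was 0 without decitabine replicate 2, and the count of 2 was 0 without decitabine replicate 1. The other oxidases differed less, Tet2 by -0.36 ± 0.19 and Tet3 by 0.36 ± 0.19.

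Most germline and cancer-testis genes tested had higher values with azacytidine than with decitabine, though edgeR called none of these differences. Of 62 members, 61 were in the table and 45 were tested. Against DMSO, 35 of the 45 rose with azacytidine and 27 with decitabine, against 13.6% and 12.4% of all genes, and none fell. In fits without 1 library these counts were 23 to 35 and 18 to 26, lowest without azacytidine replicate 2 and without decitabine replicate 2. Between the drugs the median was 1.08 with 36 of 45 positive, where all genes had a median of 0.004 and 50.5% positive. The libraries did not overlap for 27 higher and 1 lower with azacytidine, and 17 had an unadjusted p under 0.05, all higher, against 2.32% of all genes in this direction.

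Part of all these counts, of calls against DMSO, of libraries without overlap and of unadjusted p, follows from the filter on low counts. It passed 12 of the 45 only because they reached 0.534 CPM in the azacytidine libraries, and this selection favours higher values there. Only the median and the count of positive differences were taken without them. Among the other 33 the median was 0.54 with 24 positive. Summed over all 61 members, with no filter, the level was 1047 and 1056 CPM with azacytidine, 828 and 900 CPM with decitabine and 639 and 579 CPM in DMSO. These sums did not overlap between groups, and decitabine again lay between. They are weighted to abundant members and do not speak for the list as a whole. Among such members are Dazl and Taf7l, chosen above by their p, and Rhox5, slightly lower with azacytidine than with decitabine. The size of the median rested on the decitabine libraries, as it was 0.48 without decitabine replicate 1 and 1.77 without decitabine replicate 2. With a stricter filter, 1 CPM in both libraries of a group and 100 reads in all, it was 0.65 over 32 genes. This filter too can pass a gene through its azacytidine level alone, so it does not remove that selection.

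Single germline genes showed the same order at lower levels. Nxf2, an export factor of the testis, measured 2.29 and 3.70 CPM with azacytidine, 0.102 and 0.437 with decitabine and no read in DMSO, which is at least 40.3-fold and at least 3.51-fold higher than the DMSO floor. It passed the filter only through its azacytidine level, which favours a higher value there. Piwil2, which binds the small RNAs that silence transposons, stood at 9.61 and 11.9 CPM with azacytidine, 2.85 and 5.96 with decitabine and 0.754 and 0.698 in DMSO. Not every member was silent at the start. Rhox5, a homeobox gene of the reproductive tract, was at 417 and 345 CPM in DMSO, and passed the test in neither contrast, with 309 and 277 CPM under azacytidine and 328 and 313 under decitabine. The Xlr and Magea genes of this list lie in families of near-identical copies that can share reads.

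**Figure D3:**
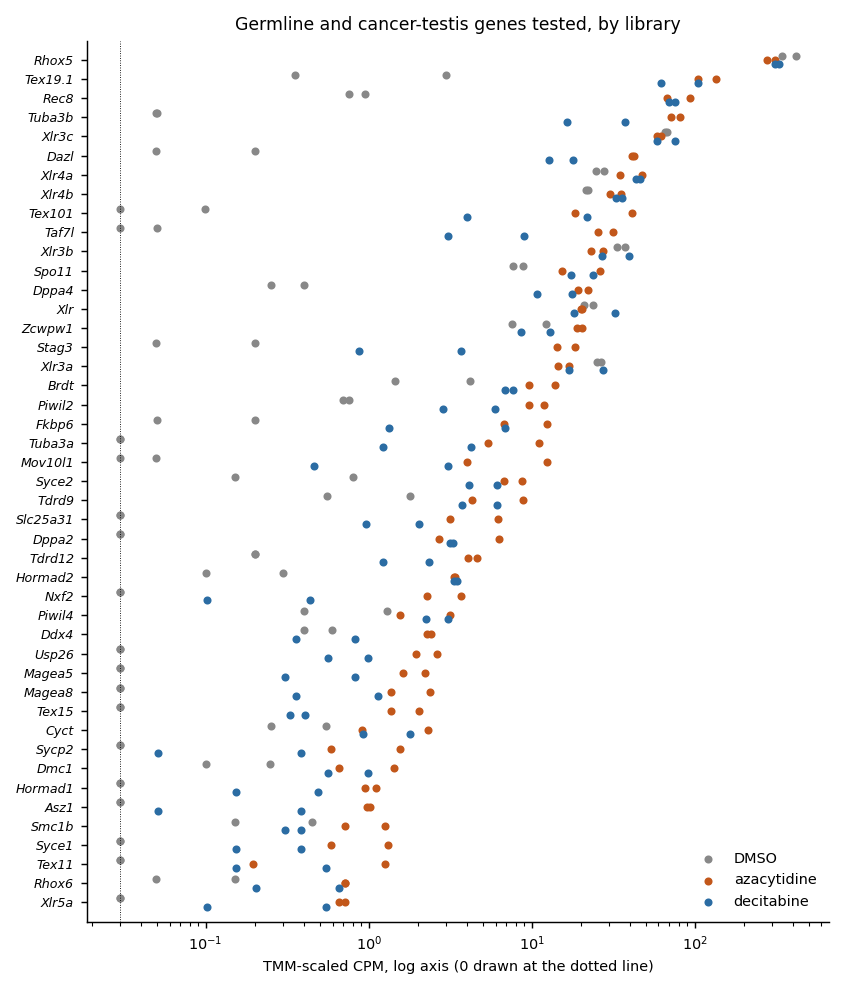
Points give the TMM-scaled level (CPM, log axis) of the 45 germline and cancer-testis genes tested, in each of the 6 libraries, sorted by their azacytidine mean. Rhox5 and the Xlr3 and Xlr4 genes are already present in the grey DMSO libraries, while Dazl, Taf7l, Stag3 and Nxf2 run from grey through blue (decitabine) to orange (azacytidine). Nxf2 was tested only through its azacytidine level.

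Imprinted genes were divided. Of 45 members 30 were tested, 4 of them only through their azacytidine level. Of the 30, 12 rose with azacytidine and 10 with decitabine, against 13.6% and 12.4% of all genes, and none fell. The median difference between the drugs was 0.18 with 20 positive, or 0.31 without azacytidine replicate 2. Among the 26 that passed the filter otherwise it was 0.14 with 16 positive. Beside Peg10 and Cdkn1c, Peg3, a zinc-finger gene expressed from the paternal copy, measured 2.68 and 3.81 CPM with azacytidine, 0.816 and 1.04 with decitabine and no read in DMSO. The maternally expressed noncoding RNAs Meg3 and Rian were tested only through their azacytidine level, and were highest in azacytidine replicate 1. Meg3 measured 4.57 and 1.07 CPM with azacytidine and 0.255 and 0.71 with decitabine, and Rian 5.10 and 1.31 against 0.255 and 0.656. Plagl1, an imprinted zinc-finger factor, rose with both drugs from 0.352 and 0.498 CPM to 478 and 303 with azacytidine and 317 and 229 with decitabine, and its drug libraries overlapped. Of the 10 retrovirus-derived genes tested, 4 rose with azacytidine and 5 with decitabine, against 13.6% and 12.4% of all genes. The median difference was 0.56, or 0.21 without decitabine replicate 1 and 0.95 without decitabine replicate 2. The decitabine count was 2 without DMSO replicate 2. The filter passed 1 of the 10 only through azacytidine, and the median of the other 9 was 0.49.

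Most genes of cholesterol synthesis and uptake had lower values with azacytidine than with decitabine, though edgeR called none of these differences. They make the sterol from acetyl-CoA and are driven together by the factor SREBP2 when sterol is short. All 24 members were tested, and 22 had a negative difference between the drugs, with a median of -0.51 and an interquartile range of -0.77 to -0.31. The libraries did not overlap for 19 of the 24, all lower with azacytidine, against 17.6% of all genes. An unadjusted p under 0.05 was found for 15, against 4.05% of all genes in this direction, and DESeq2 called 8, against 0.897% of all genes lower. Against DMSO, 17 of the 24 fell with azacytidine and 3 with decitabine, against 6.70% and 4.30% of all genes, and none rose. Leaving out 1 library gave 11 to 16 and 0 to 3, lowest without azacytidine replicate 1 (11) and without decitabine replicate 2 (0), and the median between the drugs stayed between -0.58 and -0.45.

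Insig1, the membrane protein that holds SREBP in the endoplasmic reticulum, stood at 99.5 and 113 CPM with azacytidine, 192 and 206 with decitabine and 283 and 240 in DMSO. It fell with azacytidine by 1.30 ± 0.17 (edgeR adjusted p = 0.000652), while the decitabine value was -0.40 ± 0.17 (edgeR adjusted p = 0.14), and the drugs differed by -0.91 ± 0.17 (95% interval -1.28 to -0.53). Hmgcs1, which makes hydroxymethylglutaryl-CoA, measured 77.0 and 77.2 CPM with azacytidine, 143 and 127 with decitabine and 150 and 153 in DMSO. Its difference was -0.81 ± 0.16. In both genes the azacytidine libraries lay below all 4 others.

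Fdps, farnesyl diphosphate synthase, fell with both drugs, to 44.6 and 41.1 CPM with azacytidine and 75.8 and 72.2 with decitabine from 108 and 135. Its decitabine call (edgeR adjusted p = 0.0183) was lost without DMSO replicate 3 or decitabine replicate 2 (adjusted p up to 0.101). Cyp51, Msmo1, Nsdhl and Idi1, enzymes of the same route, differed between the drugs by -0.73 to -1.12. Srebf2, which encodes SREBP2 itself, stood at 376 and 382 CPM with azacytidine and 388 and 498 with decitabine, a difference of -0.22 ± 0.17.

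**Figure D4:**
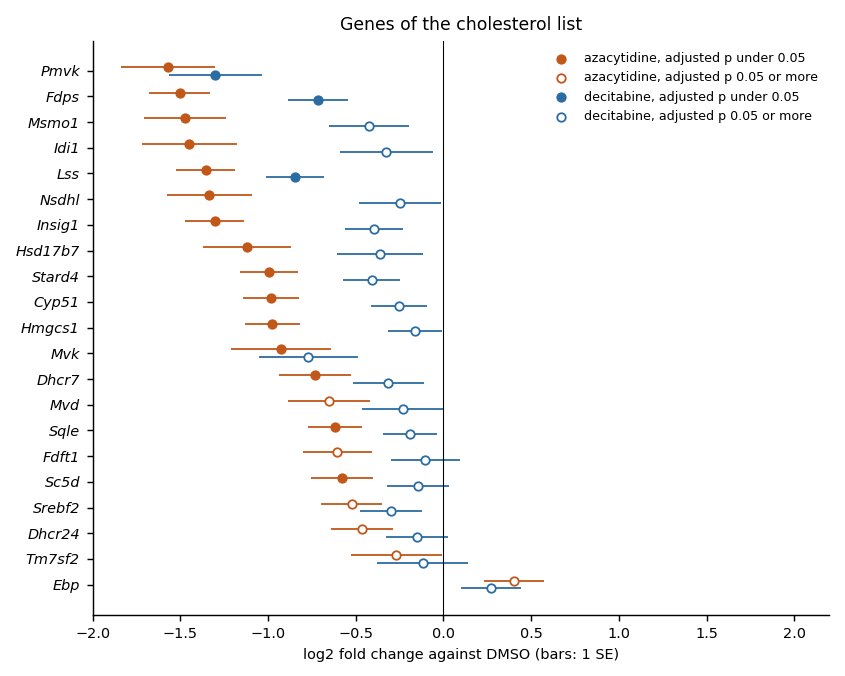
Log2 fold changes against DMSO (edgeR, bars 1 SE) of 21 genes of the cholesterol list with azacytidine (orange) and decitabine (blue), filled where the adjusted p was under 0.05. There are 15 filled orange points and 3 filled blue ones, and the blue point lies to the right of the orange one for 20 of the 21 genes, the exception being Ebp.

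Genes of T-cell signalling and traffic also had mostly lower values with azacytidine, with no edgeR call between the drugs. Of 40 cytokine, chemokine and receptor genes tested, 32 had a negative difference, with a median of -0.25, or -0.50 without decitabine replicate 2. The filter passed 2 of them only through decitabine and 1 only through azacytidine, and the median of the other 37 was -0.21. The libraries did not overlap for 19 lower and 1 higher, against 17.6% and 17.4% of all genes. DESeq2 called 5, all lower, against 0.897% of all genes lower. Against DMSO, 12 of the 40 rose and 2 fell with decitabine, against 12.4% and 4.30% of all genes. With azacytidine 5 rose and 6 fell, against 13.6% and 6.70%. The decitabine count of lower genes and the azacytidine count of higher genes were thus near these shares. The decitabine count of higher genes was 5 without decitabine replicate 1 and 6 without DMSO replicate 2, and the azacytidine count of lower genes was 3 without azacytidine replicate 1. The azacytidine count of higher genes was 3 without DMSO replicate 2, azacytidine replicate 1 or decitabine replicate 2. Beside Il18r1 and Ccr4, Ccr9, the receptor that guides T cells to the gut and thymus, fell with both drugs, from 359 and 334 CPM to 94.9 and 117 with azacytidine and 184 and 227 with decitabine. Its decitabine call was lost without DMSO replicate 2 or decitabine replicate 1 (adjusted p up to 0.106). Cxcr6, a chemokine receptor of effector T cells, measured 14.2 and 15.7 CPM with azacytidine, 29.0 and 30.1 with decitabine and 26.8 and 21.7 in DMSO.

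Checkpoint and costimulatory genes had a median of -0.24, with 20 of 27 negative. The filter passed 1 of them only through decitabine, and the median of the other 26 was -0.23. Against DMSO azacytidine called 10 higher and 3 lower, against 13.6% and 6.70% of all genes. Decitabine called 12 higher and 2 lower, against 12.4% and 4.30%. The counts of higher genes fell to 6 without azacytidine replicate 2 and to 4 without decitabine replicate 2. Cd28, the costimulatory receptor of T cells, measured 224 and 233 CPM with azacytidine, 457 and 383 with decitabine and 285 and 320 in DMSO. Neither drug passed the test against DMSO (edgeR adjusted p = 0.121 and 0.0834). The drugs differed by -0.88 ± 0.17 (95% interval -1.25 to -0.50, edgeR adjusted p = 0.159, DESeq2 adjusted p = 0.00011). Tigit, an inhibitory receptor, fell with azacytidine to 4.31 and 4.17 CPM from 13.9 and 11.5, and stood at 11.7 and 7.6 with decitabine, a call lost without either azacytidine library (adjusted p up to 0.0525). Btla, another inhibitory receptor, measured 73.5 and 113 CPM against 151 and 155. Cd80, a ligand of CD28, rose with both drugs, to 32.7 and 44.7 CPM with azacytidine and 62.9 and 57.7 with decitabine from 10.5 and 8.12. Cd274, which encodes PD-L1, also rose with both and its drug libraries overlapped, at 12.6 and 18.8 CPM with azacytidine and 11.9 and 18.4 with decitabine, from 7.34 and 6.18. The azacytidine call was lost without DMSO replicate 3 or azacytidine replicate 2, and the decitabine call without either DMSO library or decitabine replicate 2 (adjusted p up to 0.178 and 0.268). The difference for Cd274 was 0.06 ± 0.31 (95% interval -0.63 to 0.75).

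Genes of cytotoxic lymphocytes and NK cells were mostly too low to test, with 9 of 21 tested and 1 of these only through azacytidine. Of the 9, 7 had a negative difference between the drugs, with a median of -0.62. The libraries did not overlap for 5 lower and 1 higher, against 17.6% and 17.4% of all genes. The median was -0.19 without decitabine replicate 1 and -0.95 without decitabine replicate 2. Neither edgeR nor DESeq2 called a member between the drugs. An unadjusted edgeR p under 0.05 was found for 2, lower with azacytidine, against 4.05% of all genes in this direction. Gzma and Fcer1g are named here after their values were seen. Gzma, the protease granzyme A, measured 5.55 and 3.10 CPM with azacytidine, 11.8 and 5.96 with decitabine and 14.7 and 21.3 in DMSO. It was the member that edgeR called lower with azacytidine against DMSO (adjusted p = 0.00696), a call lost without azacytidine replicate 2 (adjusted p = 0.0606) and no member was called with decitabine. Fcer1g, a signalling chain of Fc receptors, differed widely within each group, at 22.2 and 3.04 CPM with azacytidine, 58.9 and 14 with decitabine and 2.06 and 10.4 in DMSO.

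Most interferon-stimulated genes rose with both drugs. Of 56 interferon-stimulated genes tested, 38 rose with azacytidine and 40 with decitabine, against 13.6% and 12.4% of all genes, and none fell. Leaving out 1 library gave 28 to 39 and 31 to 37. Between the drugs the median was -0.16 (-0.24 without azacytidine replicate 2), with 41 of 56 negative. The libraries did not overlap for 18 lower and 3 higher, against 17.6% and 17.4% of all genes. The filter passed 2 of the 56 only through decitabine, and the median of the other 54 was -0.14. Among the interferon-stimulated genes were GTPases induced by interferon gamma. Igtp stood at 60.4 and 58.4 CPM with azacytidine, 80.6 and 116 with decitabine and 9.15 and 11 in DMSO, and Irgm1 at 57.0 and 56.6, 73.8 and 86.7, and 22.8 and 18.3. Irf1, a transcription factor of this response, measured 70.6 and 53.3 CPM with azacytidine against 89.0 and 88.5 with decitabine, from 18.9 and 19.5.

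The sensors of foreign and retroviral nucleic acid gave a median difference of -0.03 over 23 genes, which ran from -0.15 without azacytidine replicate 1 to 0.10 without azacytidine replicate 2. Rigi, a sensor of short double-stranded RNA, rose to 62.0 and 74.0 CPM with azacytidine and 83.4 and 78.6 with decitabine, from 21.7 and 27.7. Ifih1, the sensor of long double-stranded RNA, rose with both from 0.704 and 1.40 CPM, to 5.03 and 2.50 with azacytidine and 6.42 and 2.62 with decitabine. Its azacytidine call was lost without DMSO replicate 2 or either azacytidine library and its decitabine call without DMSO replicate 2 or decitabine replicate 1 (adjusted p up to 0.296). Zbp1, which senses left-handed nucleic acid, rose from 1.11 and 1.50 CPM to 11.8 and 11.3 with azacytidine and to 17.4 and 21.5 with decitabine. Isg15, a ubiquitin-like interferon product, was low throughout, at 3.59 and 2.26 CPM with azacytidine, 1.78 and 3.33 with decitabine and 1.11 and 0.748 in DMSO. B2m, the light chain of MHC class I, stood at 847 and 752 CPM with azacytidine and 884 and 812 with decitabine against 613 and 602, and passed the test with neither drug. Of 23 MHC class I genes, 8 rose with azacytidine and 8 with decitabine, against 13.6% and 12.4% of all genes. The median difference between the drugs was 0.04, or -0.07 and 0.14 without azacytidine replicate 1 or 2. Each count was 4 without 1 library, azacytidine replicate 1 for the former and decitabine replicate 2 for the latter.

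Replication genes and histones, which are transcribed in S phase, were lower than DMSO with both drugs, and by their medians nearer to DMSO with azacytidine. In bulk libraries, fewer cells in a phase and less RNA per cell cannot be told apart. Of 49 replication-dependent histone genes, 45 fell with azacytidine and 44 with decitabine, against 6.70% and 4.30% of all genes. The median log2 changes were -1.08 and -1.32, and 42 of 49 differences between the drugs were positive. That median difference was 0.23, and 0.06 with 29 positive without azacytidine replicate 1. Without azacytidine replicate 2 the azacytidine count was 26. H1f5, a linker histone, measured 485 and 452 CPM with azacytidine, 343 and 348 with decitabine and 943 and 820 in DMSO. Near-identical copies of histone genes can share reads.

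Of 32 replication genes, 12 fell with azacytidine and 22 with decitabine, against 6.70% and 4.30% of all genes. The median difference was 0.20 with 23 positive, or 0.10 without azacytidine replicate 1. The counts against DMSO also rested on single libraries, with 3 and 4 for azacytidine without its replicate 1 or 2, and 5 and 9 for decitabine without its replicate 2 or DMSO replicate 2. E2f2, an activator of S-phase genes, stood apart from its list, since it rose with azacytidine to 181 and 145 CPM from 103 and 98.4, a call lost without either DMSO library or azacytidine replicate 1, and stood at 104 and 107 with decitabine. Chaf1a, a chaperone that places histones on new DNA, measured 125 and 92.0 CPM with azacytidine against 76.7 and 77.3 with decitabine and 145 and 119 in DMSO. Of 30 mitosis genes, 27 fell with azacytidine and 23 with decitabine, against 6.70% and 4.30% of all genes. The median difference was -0.07, or 0.09 without decitabine replicate 1 and -0.25 without decitabine replicate 2. The mitosis counts were 8 and 12 without azacytidine replicate 1 or 2, and 3 and 5 for decitabine without decitabine replicate 2 or DMSO replicate 2.

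Many targets of p53 rose with both drugs. Of 32 tested, 18 rose with azacytidine and 20 with decitabine, against 13.6% and 12.4% of all genes. With azacytidine 2 fell, Perp among them. Cdkn1a, the cell-cycle inhibitor p21, measured 375 and 360 CPM with azacytidine, 267 and 430 with decitabine and 38.7 and 31.4 in DMSO. The decitabine libraries lay on either side of both azacytidine libraries, and the difference was 0.08 ± 0.22 (95% interval -0.42 to 0.57). Mdm2, which degrades p53, stood at 75.5 and 75.5 CPM with azacytidine and 92.6 and 85.9 with decitabine, and the death receptor gene Fas at 14 and 16.2 CPM against 21.9 and 23.3. Perp, a membrane protein of apoptosis, stood at 595 and 512 CPM with azacytidine against 898 and 860, with 1015 and 730 in DMSO, and its call (edgeR adjusted p = 0.0413) was lost in 5 of the 6 fits without 1 library, the exception being DMSO replicate 3. Trp53 itself differed by 0.03 ± 0.18. Myc, a transcription factor of cell growth, stood at 121 and 97.5 CPM with azacytidine, 123 and 123 with decitabine and 210 and 186 in DMSO, and differed between the drugs by -0.17 ± 0.17.

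The mitochondrially encoded genes had a median difference of -0.79, with 11 of 11 lower with azacytidine, and this rested on decitabine replicate 1. The median was -0.13 without that library, with 3 of 11 positive, and -1.26 without the other decitabine library. The transcript mt-Co1, a subunit of cytochrome oxidase, measured 14618 CPM there and 7517 CPM in the second decitabine library, against 7315 and 6327 with azacytidine and 6026 and 6567 in DMSO. Nuclear genes of oxidative phosphorylation had a median of 0.05 (-0.08 and 0.14 without azacytidine replicate 1 or 2), with no call in either contrast with DMSO.

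Lists tied to RNA and translation, the molecules that only azacytidine enters in quantity, showed small differences. Of 40 ribosomal protein genes, 34 were positive with a median of 0.18 (0.11 without azacytidine replicate 1), and the libraries did not overlap for 23, all higher with azacytidine, against 17.4% of all genes. None of the 40 passed the test against DMSO with either drug. For the counts of falls that follow, the share of all genes was 6.70% with azacytidine and 4.30% with decitabine. Of 20 aminoacyl-tRNA synthetases, which charge tRNAs, 13 fell with azacytidine and 15 with decitabine, and the median difference between the drugs was 0.04, or -0.08 and 0.08 without azacytidine replicate 1 or 2. Those counts were 3 without azacytidine replicate 2 and 6 without decitabine replicate 2. Of 24 integrated stress response genes 13 and 12 fell, with a median difference of 0.07 (-0.11 and 0.18 without azacytidine replicate 1 or 2), and the azacytidine count was 7 without azacytidine replicate 2. Of 37 ribosome biogenesis genes 16 and 12 fell, with a median difference of -0.004 (-0.05 and 0.02 without azacytidine replicate 1 or 2), but 1 and 0 did without DMSO replicate 2 and 25 and 26 without DMSO replicate 3.

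The medians of 4 further lists lay within the interquartile range of all genes, -0.23 to 0.22. For 33 T-cell identity genes the median difference was -0.10, or -0.27 without azacytidine replicate 1. For 18 genes of NF-kB signalling it was 0.18, or 0.03 and 0.36 without azacytidine replicate 1 or 2. For 28 genes of DNA repair it was 0.02, or 0.20 and -0.13 without decitabine replicate 1 or 2. For 31 genes of glycolysis and hypoxia, of which 26 were negative, it was -0.10, or -0.25 and -0.02 without azacytidine replicate 1 or 2.

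**Figure D5:**
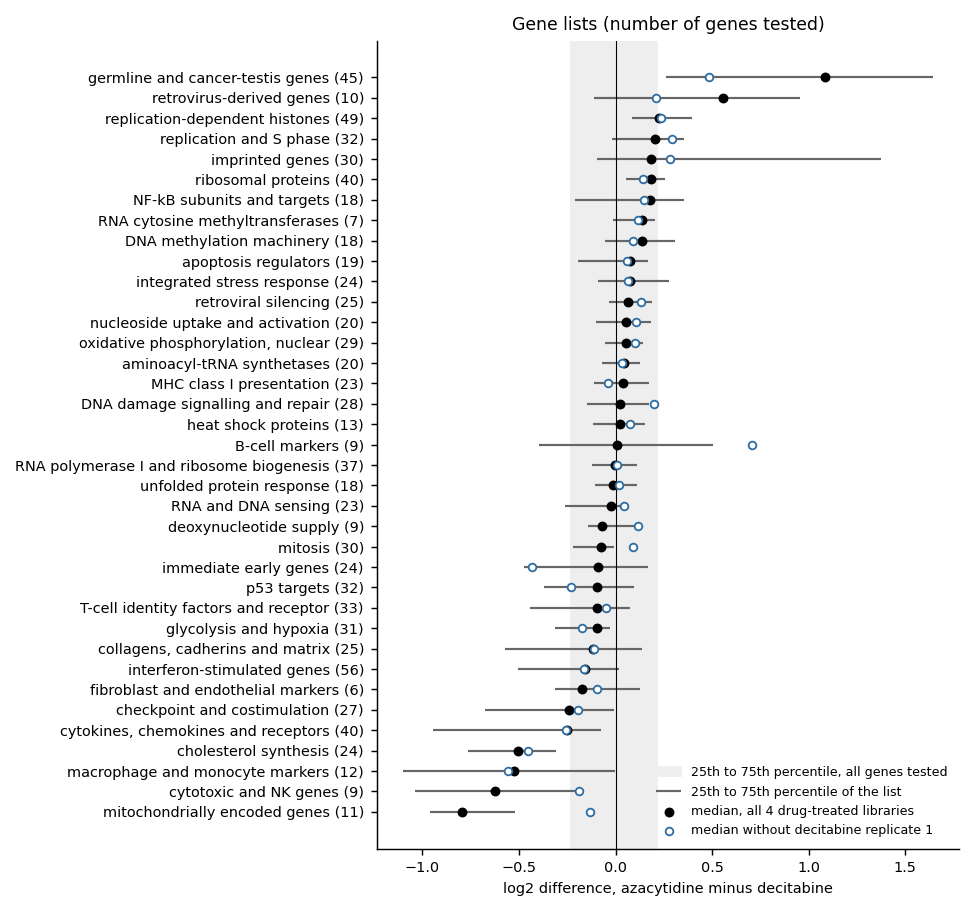
Median log2 difference, azacytidine minus decitabine, of each gene list of 5 or more genes tested (filled points) with its interquartile range (lines), and the median without decitabine replicate 1 (open points); the grey band is the interquartile range of all genes tested. The filled points of germline, retrovirus-derived and histone genes lie above the band, and those of the mitochondrial, cytotoxic and NK, macrophage, cholesterol, cytokine and checkpoint lists below it, with open points inside the band for the mitochondrial (-0.13), cytotoxic and NK (-0.19), retrovirus-derived (0.21) and checkpoint (-0.20) lists. Outside it are the open points of lists whose filled point lies inside for B-cell (0.71), replication (0.29), imprinted (0.28), p53 target (-0.23) and immediate early (-0.43) genes.

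Markers of other cell types were checked in the same way. None of 11 neutrophil markers was tested, being too low, and of 9 B-cell markers tested none was called in either contrast. Of 18 macrophage and monocyte markers 12 were tested. Of these, 5 were higher in each drug against DMSO, where the shares of all genes were 13.6% and 12.4%. The median difference was -0.52, or -0.23 without decitabine replicate 2. Without DMSO replicate 2 the counts were 2 and 3. The filter passed 1 of the 12 only through decitabine, and the median of the other 11 was -0.49. The summed level of the list was 52.9 and 45.4 CPM with azacytidine, 77.5 and 66.3 with decitabine and 36.2 and 42.7 in DMSO. Among them Cd68, a lysosomal protein, measured 13.9 and 9.12 CPM with azacytidine, 28.4 and 20.9 with decitabine and 5.63 and 5.88 in DMSO. Over both libraries of a group, Adgre1 had 1 read in DMSO, 42 with azacytidine and 112 with decitabine. Cd14 had 3, 54 and 95 in the same order. Csf1r, a receptor of the lineage, stayed between 0.392 and 1.25 CPM in every library. Of 6 fibroblast and endothelial markers tested, 4 rose with each drug, against 13.6% and 12.4% of all genes. Col1a2, a collagen chain, had no read in DMSO and stood at 20.5 and 4.83 CPM with azacytidine and 22.9 and 12.9 with decitabine. Whether other cells had a part in any of these levels was not tested.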

How the data were processed

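RNA-seq was made from the EG7-OVA libraries. The deposited values, treated as estimated counts, are unscaled reads per gene for 55969 entries, made by the authors with STAR, featureCounts, Trim Galore and fastp, per the submitters' processing notes; the strand setting is not given in the sources used here. In 62 entries 145 values were not whole, and these were rounded. In R 4.3.3, edgeR 4.0.16 quasi-likelihood tests with TMM scaling and Benjamini-Hochberg adjustment (threshold 0.05) were fitted to the 6 EG7-OVA libraries, 2 per group, and filterByExpr left 19123 genes. DESeq2 1.42.0, limma-voom (limma 3.58.1), other filters and scaling, a replicate block and fits without each library were alternatives. The pipeline was tested on simulated data. The 39 gene lists and the members were chosen with earlier results of these data known. Genes named are a fixed set and the 12 smallest p in each direction whose higher group averaged at least 5 CPM and whose libraries did not overlap, since the rule for genes past the threshold found none. Further list members were chosen after their values were seen. Intervals cover 95%. Ratios to a group with no read use a floor of 3 counts over the group and cover counting error only. Values of some genes of the cholesterol list are not reported here.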

Additional observations from a re-analysis of the deposited data

How the results depend on the processing

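For azacytidine against decitabine, limma-voom called 0 genes, as did edgeR with median-ratio size factors, the stricter filter, the 4 libraries alone or the replicate block over 6 libraries. DESeq2 called 37 higher and 135 lower (172), the fit with no filter 112 and 266 (378), and the replicate block on the 4 libraries alone 232 and 381 (613). Same-numbered azacytidine and decitabine libraries deviated together at r = 0.273, but 2 pairs share only a number. With the block over 6 libraries the counts against DMSO were 3609 for azacytidine and 2954 for decitabine. Fits without 1 library gave 0 to 20 higher, 0 to 68 lower and 0 to 88 in all between the drugs. For azacytidine against DMSO they gave 1327 to 2513 higher, 348 to 1384 lower and 1675 to 3897 in all, and for decitabine 1301 to 2294, 219 to 996 and 1520 to 3290. With a log2 change above 1 required, 548 genes were lower with azacytidine and 266 with decitabine, and DESeq2 called 1338 lower with decitabine. The causes were not tested. The other counts against DMSO stayed within 1.5 times.

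Between the drugs these genes changed sign only when 1 library was left out, in ranges of -0.11 to 0.33 for Dnmt3a, -0.87 to 0.53 for Ifih1, -0.18 to 0.70 for Isg15, -0.27 to 0.39 for Cd274, -0.22 to 0.45 for Cdkn1a, -0.18 to 0.20 for Trp53, -0.042 to 0.97 for Samhd1, -0.33 to 0.12 for Rrm1, -0.35 to 0.090 for Rrm2 and -0.066 to 0.011 for Nsun2. Ccr4 with azacytidine against DMSO ranged from -0.21 to 0.13. Of the 84 named genes, 36 were called between the drugs by DESeq2 and 47 by the block on 4 libraries. List medians moved less than the replicate spread in 506 of their values and more in 26. That spread is the SD over pairs of 1 azacytidine and 1 decitabine library. The pairs share libraries, so the bar is loose and does not show that the medians are stable. The germline median ran from 0.48 to 1.77 in fits without 1 library. With 2 libraries a group, the intervals limit what can be seen.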
